A study of Mus musculus with 26 samples.

Results

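Bipolar cells were compared with retinal ganglion cells, the classes of excitatory neuron at either end of the vertical pathway of the inner retina, over 16 of the 26 arrays of the series. The 4 bipolar arrays and the 12 ganglion cell arrays were chosen by their labels alone. Bipolar cells came as ON bipolar cells, sorted for GFP in C57BL/6 mice, and as MP bipolar cells, sorted as CFP-positive and VC1.1-negative in mice of mixed C57BL/6 x CD1 background. Ganglion cells came as 6 subtypes, each sorted as Thy1-positive together with a reporter. These were YFP in the BD, J, W3 and W7 subtypes, GFP from a BAC transgene in the Cdh3 subtype and beta-galactosidase in the Isl2 subtype. The BD, Isl2, J, W3 and W7 mice were C57BL/6, and the background of the Cdh3 replicates was labelled Swiss Webster x C57BL/7 and C57BL/8. All mice were at postnatal day 6, retinas were dissociated with papain, each subtype had 2 replicates from different litters, and RNA went through 2 rounds of amplification before it was hybridised to Affymetrix arrays. A subtype is defined by its reporter line and gate, so each class mean stands for these lines and not for all bipolar or all ganglion cells.

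Bipolar cells receive glutamate from photoreceptors and pass a graded signal to the inner retina through ribbon synapses, which release glutamate continuously. ON bipolar cells read photoreceptor glutamate through a metabotropic receptor whose G protein cascade closes a cation channel. Ganglion cells collect bipolar and amacrine input, fire action potentials and send long axons through the optic nerve to the brain. In the first postnatal week of the mouse, ganglion cells have already grown their axons while bipolar cells are still differentiating.

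Levels are given as log2(intensity + 16) after quantile normalization, a scale on which the lowest possible value is 4.09 and a difference of 1 is 2-fold. That scale understates the change of dim genes. Before normalization the median intensity of an array was 41.1 to 45.8 for bipolar cells and 61.5 to 74.8 for ganglion cells, and 37.4 to 47.1 for the 10 amacrine arrays of the series. The 12 ganglion cell columns thus lay on another intensity scale than the other 14, and this cannot be told apart from their class. In the values as deposited, the hybridisation control CreX also read lower on the bipolar arrays (log2 ratios of the class means -0.412 and -0.467 for its probe sets, with no overlap). The dimmer hybridisation controls overlapped between the classes, with log2 ratios of -0.014 to -0.122 for BioB, -0.016 and -0.084 for BioC and -0.032 and -0.297 for BioDn. Amacrine levels are therefore given beside some genes below, since amacrine and bipolar columns share a scale. The amacrine subtypes were starburst cells (Kusabira Orange-positive, Thy1-negative), J cells (YFP) and PaxCre cells (GFP), all in C57BL/6 mice, MP amacrine cells (CFP and VC1.1, mixed C57BL/6 x CD1) and AII cells (GFP, Swiss Webster x C57BL/6). Across the 2000 most variable genes, which are not independent replicates, bipolar and ganglion cell arrays correlated at 0.113 to 0.171. Bipolar and amacrine arrays correlated at 0.41 to 0.697, ON and MP bipolar arrays at 0.78 to 0.815 and ganglion cell arrays among themselves at 0.783 to 0.986. The ON bipolar replicates correlated at 0.958 and the MP bipolar replicates at 0.965. The genes were chosen for their variance over these same 26 arrays, which favours low values between unlike arrays, so these values are descriptive only.

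A total of 4132 of 13951 tested genes differed between the classes (a gene was called where its limma adjusted p was below 0.05 and the class means lay 1 log2 unit or more apart). Of these, 1557 were higher in bipolar cells, which is 11.2% of the genes tested, and 2575 were lower, which is 18.5%. The median difference over all tested genes was 0.016. With the columns as deposited the calls moved to 787 higher and 4180 lower and the median difference to -0.53, so the share of calls that were higher fell to 15.8% with the deposited columns, against 37.7% after normalization. Every bipolar array lay above or below every ganglion cell array for 34.9% of all tested genes and for 3460 of the 4132 calls. Among those 3460, the bipolar arrays stood apart from all 22 other arrays for 363 genes, whereas the ganglion cell arrays stood apart from all 14 others for 1907. The 1907 cannot be told apart from the intensity scale that the ganglion cell columns alone had, so these counts do not rank the classes. Differences of 3 log2 units or more were found for 119 genes higher and 358 genes lower in bipolar cells. The size of a difference also depended on the probe set that stood for a gene. With the median over probe sets, 59 of 201 called named genes kept their direction but had a difference smaller by over 1.5 times, 18 of them below the call, and 6 turned. Errors come from replicates within a subtype, which the labels describe as separate litters, and do not measure the spread between subtypes. With subtype means as units, 3905 genes were called, and 15 of the named genes lost their call.

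**Figure D1:**
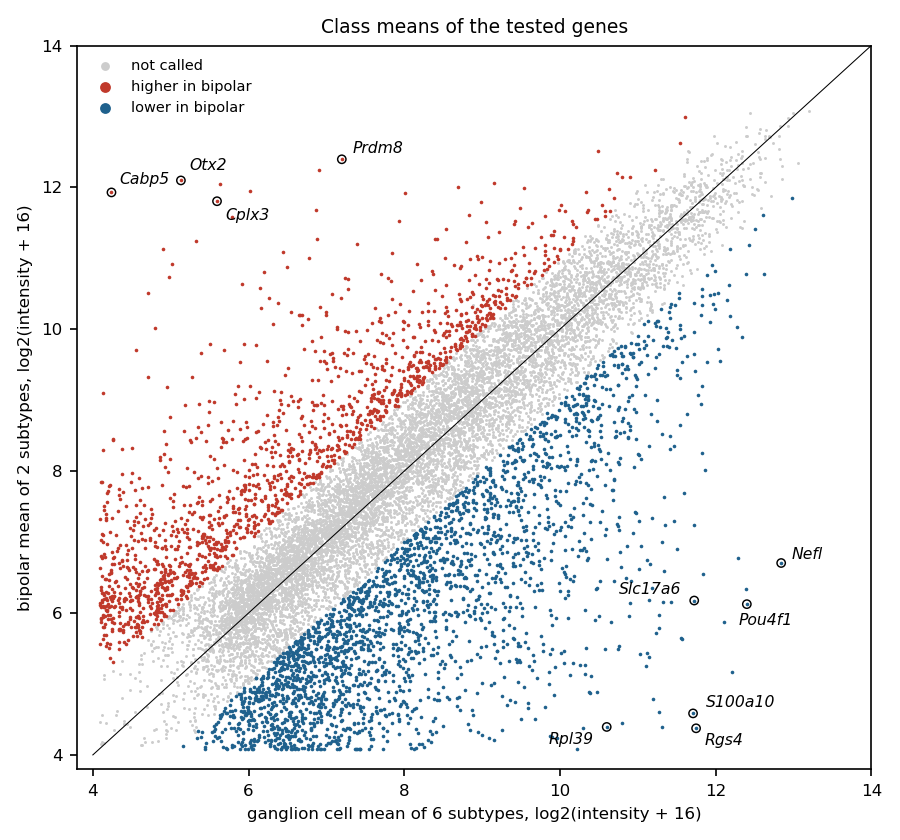
Class means of 13951 tested genes, with the mean of the 2 bipolar subtypes on the y axis and the mean of the 6 ganglion cell subtypes on the x axis, both as log2(intensity + 16). The 1557 genes called higher in bipolar cells lie above the diagonal and the 2575 called lower lie below it, with Cabp5 and Otx2 near the upper left corner and Rgs4 and S100a10 near the lower right.

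The defining markers matched the class labels. Cabp5, a calcium-binding protein of bipolar cells, was at 12.29 and 11.67 in ON bipolar and 11.87 and 11.89 in MP bipolar arrays, against a lowest, median and highest ganglion cell value of 4.09, 4.14 and 4.69. Otx2, a homeodomain factor needed for photoreceptor and bipolar fates, was at 11.94, 12.31, 12.07 and 12.07 in bipolar arrays, against 4.41, 5.02 and 6.12 in ganglion cells. Neither gene overlapped between the classes. Pou4f1, the Brn3a POU factor of ganglion cells, was at 5.57, 6.54, 6.46 and 5.93 in bipolar arrays, against 10.93, 12.68 and 13.05 in ganglion cells. Nefl, the neurofilament light chain, was at 6.47, 7.56, 6.62 and 6.17 in bipolar arrays, against 12.61, 12.83 and 13.07 in ganglion cells.

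The sort genes are no finding. Thy1, the antigen of the ganglion cell gate, was at 4.96 and 5.11 in ON bipolar arrays but at 11.44 and 11.89 in MP bipolar arrays, against 10.34, 11.64 and 11.80 in ganglion cells. High Thy1 therefore did not separate MP bipolar cells from ganglion cells, although every other marker in the preceding paragraph did. Isl2, the gene of a ganglion cell line, was at 6.39, 6.52, 6.49 and 6.13 in bipolar arrays and ranged over 5.84 to 8.20 in ganglion cells, with its highest subtype mean in the Isl2 line.

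The 15 genes furthest above ganglion cell level in bipolar cells rose by 4.97 to 7.69 log2 units (31.3-fold to 207-fold, SE 0.12 to 0.32, limma adjusted p at most 1.34e-11). They were ranked among called genes with no overlap of arrays between the classes. Cabp5 came first with 7.69 ± 0.32 and Otx2 second with 6.97 ± 0.29. They were followed by Tmem215, which encodes a transmembrane protein (6.42 ± 0.31), by Otor, a secreted protein first known from the inner ear (6.24 ± 0.27), and by Cplx3, the complexin of ribbon synapses (6.21 ± 0.12). The GABA receptor subunit gene Gabrr1, rho 1, which gives bipolar terminals their slow inhibition, was higher by 5.92 ± 0.26. Lrit1, a leucine-rich repeat protein of the photoreceptor synapse, was higher by 5.80 ± 0.31. Rgs9bp, the membrane anchor of a GTPase-accelerating complex in photoreceptors and ON bipolar cells, was higher by 5.15 ± 0.19.

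The others of the 15 were Zfp385b, a zinc-finger gene (5.93 ± 0.16), Lbh, a transcriptional cofactor (5.91 ± 0.16), Otx2os1, a noncoding RNA from the Otx2 locus (5.76 ± 0.18), Neurod4 (5.33 ± 0.23), U2af2 (5.22 ± 0.16), Prdm8 (5.20 ± 0.24) and Lhx4 (4.97 ± 0.23). Lbh was not even among bipolar cells, with 9.44 and 10.24 in ON and 11.96 and 12.06 in MP arrays, and its probe sets did not all change by 1 log2 unit. Prdm8 was not even among ganglion cells, where it ran from 4.59 to 10.02 with a median of 7.26. U2af2, a general splicing factor, was at 10.03, 9.79, 10.14 and 10.13 in bipolar arrays, against 4.16, 4.72 and 5.35 in ganglion cells. Its amacrine arrays held 9.52 to 10.48, as high as the bipolar arrays on the same intensity scale, so for this gene the class and the scale cannot be told apart.

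**Figure D2:**
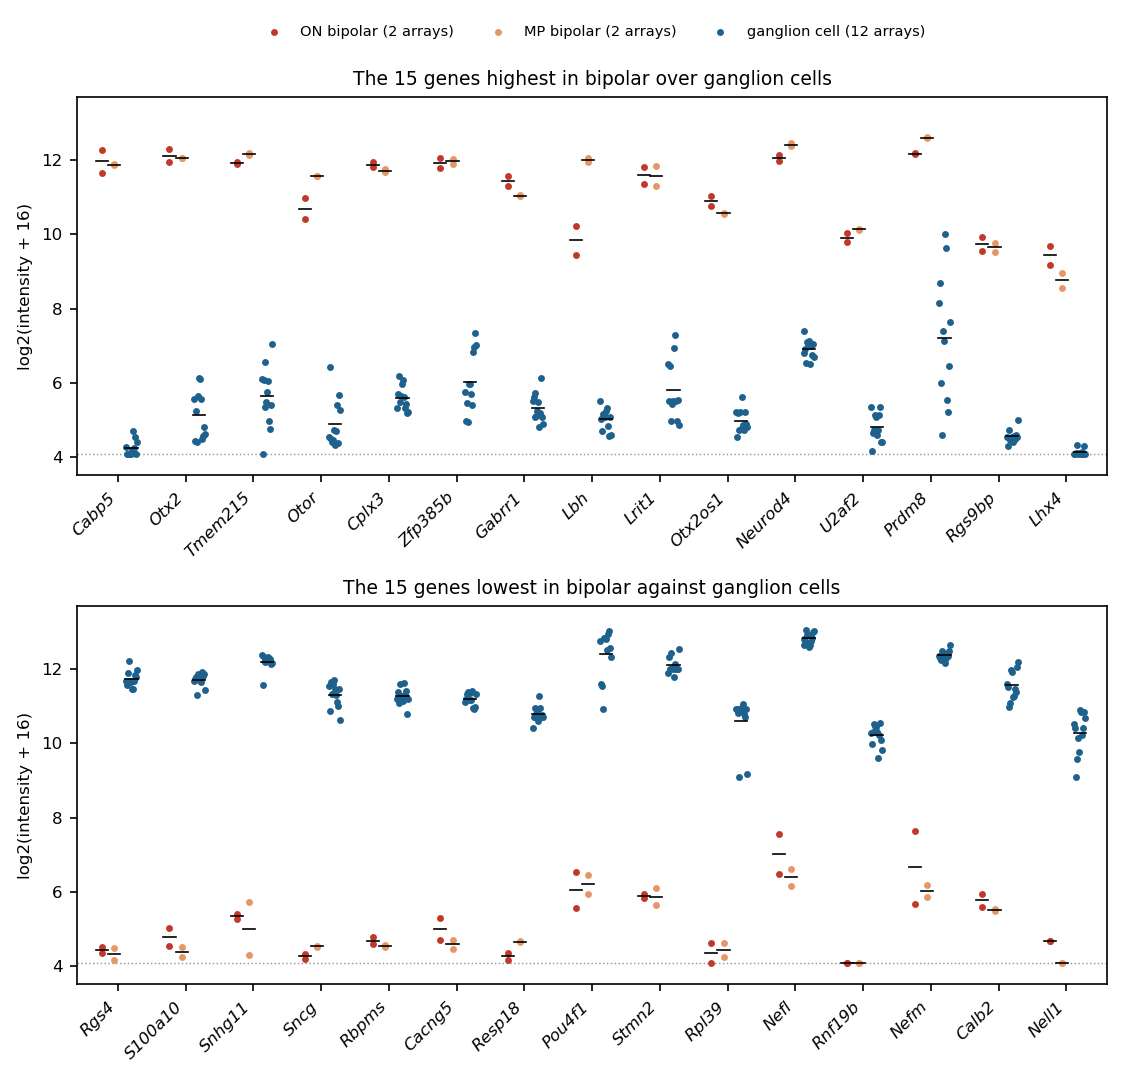
Level of the 15 genes with the highest and the 15 with the lowest difference between bipolar and ganglion cells, as log2(intensity + 16), with one point per array, a bar at each mean and a dotted line at the lowest possible value, 4.09. The 4 bipolar arrays lie between 8.56 and 12.62 in the upper panel and between 4.09 and 7.63 in the lower panel. For no gene shown do they overlap the 12 ganglion cell arrays, which was a condition of the choice of genes.

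Counts of called list members, here and below, stand against 11.2% higher and 18.5% lower over all tested genes. Transcription factors separated the classes in both directions. Of 15 tested genes in the list of bipolar transcription factors, 9 were higher and 1 was lower in bipolar cells, with a median difference of 2.68. Neurod4, a basic helix-loop-helix factor of bipolar and amacrine development, was at 11.99, 12.13, 12.46 and 12.38 in bipolar arrays, against 6.52, 6.94 and 7.41 in ganglion cells. Prdm8, a PR-domain factor required for rod bipolar cells and OFF bipolar subtypes in the mouse, and Lhx4, a LIM homeodomain factor of cone bipolar cells, completed the leading 4 with Otx2. The member that was lower was Irx5, an Iroquois factor of some cone bipolar types (6.44, 6.87, 6.39 and 6.53 in bipolar arrays, against 8.06, 8.47 and 9.79 in ganglion cells; difference -2.02 ± 0.13). Outside the naming rule, and chosen after their values were seen, Crx and Fezf2 were higher by 4.22 ± 0.25 and 4.18 ± 0.13. Crx, a photoreceptor and bipolar homeodomain factor, was even between ON and MP bipolar cells, whereas Fezf2 was at 5.70 and 5.76 in ON arrays and 10.84 and 10.91 in MP arrays.

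Of 24 tested ganglion cell transcription factors, 16 were lower and 1 was higher in bipolar cells, with a median difference of -2.12. With subtype means as units, 12 were lower and 0 higher. Ebf3 and Ebf1, helix-loop-helix factors of early B-cell factor type, fell by 5.49 ± 0.23 and 5.08 ± 0.23 on the log2 scale in bipolar cells. Myt1l, a zinc-finger factor that keeps neurons neuronal, was at 7.43, 7.72, 6.04 and 5.18 in bipolar arrays, against 10.85, 11.34 and 12.01 in ganglion cells (-4.74 ± 0.17), although its probe sets were not all of that size. The member called higher, Tbx20, overlapped the ganglion cells. It was at 7.05, 7.38, 6.88 and 6.69 in bipolar arrays against 4.70, 4.98 and 8.66, with the Cdh3 subtype highest, and its direction turned with the median over probe sets and with the 16 arrays normalized alone. Pou4f3, a relative of Pou4f1, was too dim to be tested, at 4.15 to 4.24 in bipolar and 4.34 to 4.90 in ganglion cell arrays.

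Otx2 and Crx belong to a homeodomain class known to bind the core TAATCC, so the 250 bases before each start site in RefSeq's mouse promoters (GRCm38.p6) were searched for it on either strand. It was one of 9 motifs searched, and it is described here after the values were seen. The core was present before 7.21% of 27025 genes, 6.48% of 11222 tested genes, 9.16% of 1212 genes called higher in bipolar cells and 5.23% of 2025 called lower. Among genes that differed by 3 or more it was present before 17 of 90 higher (18.9%) and 14 of 267 lower (5.24%). Shares of other motifs differed from those over all tested genes as well. CAGATG was present before 20.0% of the 90 and 15.7% of the 267, against 12.7% of tested genes, and TAATTA before 6.67% and 6.37%, against 3.31%. CAGCTG was present before 20.0% and 21.0%, against 14.7%, and CCCNNGGG, the short form of the EBF factors' site, before 23.3% and 26.2%, against 18.3%. TAATCT was present before 8.89% of the 90 and 5.62% of the 267, against 5.68% of tested genes. For ATTAAT these shares were 4.44% and 4.49%, against 2.81%, and for CATATG 1.11% and 4.49%, against 2.12%. A longer form of the EBF site was present before 1.11% and 3.37%, against 1.2%. Among the ranked genes with a promoter that could be searched, TAATCC was found before 3 of 12 of the highest and 0 of 9 of the lowest. The stretches around a match are shown for those 3 genes and for Crx, Gngt1 and Lrit2, which are described with their values elsewhere in the text and were chosen because they hold a match, to show where the core lies relative to the start site. The core, or GGATTA where it lies on the other strand, is in capitals, and each stretch is written on the gene's own strand.
Cabp5, chr7:13398087-13398146, plus strand: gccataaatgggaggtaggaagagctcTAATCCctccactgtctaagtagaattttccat
Otx2, chr14:48665288-48665347, minus strand: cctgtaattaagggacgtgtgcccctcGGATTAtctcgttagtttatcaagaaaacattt
Lrit1, chr14:37054753-37054812, plus strand: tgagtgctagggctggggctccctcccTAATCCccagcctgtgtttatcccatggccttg
Crx, chr7:15880017-15880076, minus strand: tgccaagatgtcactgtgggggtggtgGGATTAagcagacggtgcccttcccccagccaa
Gngt1, chr6:3993937-3993996, plus strand: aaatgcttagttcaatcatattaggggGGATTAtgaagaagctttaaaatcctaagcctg
Lrit2, chr14:37067965-37068024, plus strand: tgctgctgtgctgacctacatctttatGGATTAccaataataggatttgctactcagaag
Counted from the start site, the match shown began at base -41 in Cabp5, -50 in Lrit1, -44 in Gngt1, -94 in Crx and -211 at one start of Otx2. Lrit2 has several starts, and its match began at -37 or -56. Cabp5 held a further match at -160 and Crx one at -21. A match describes these letters and not the binding of a factor.

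The 15 genes furthest below ganglion cell level in bipolar cells fell by 5.91 to 7.37 log2 units (60.3-fold to 166-fold, SE 0.14 to 0.40, limma adjusted p at most 2.55e-10). These too were ranked among called genes with no overlap of arrays. Rgs4, which speeds the return of G proteins to rest, was at 4.36, 4.50, 4.16 and 4.48 in bipolar arrays, against 11.46, 11.69 and 12.22 in ganglion cells, though 1 of its 3 probe sets changed by less than 1. S100a10, the partner of annexin A2, was at 5.04, 4.54, 4.52 and 4.25 in bipolar arrays, against 11.31, 11.74 and 11.94 in ganglion cells. Sncg, gamma-synuclein, and Rbpms, an RNA-binding protein used as a label of all ganglion cells, differed by -6.92 ± 0.20 and -6.66 ± 0.14. For Sncg, S100a10 and Rbpms the amacrine arrays reached 5.24, 6.42 and 5.51 at most. Of the 15 lowest genes, 11 had an amacrine mean nearer the bipolar than the ganglion cell mean, as had 6 of the 15 highest. For such genes the class and the intensity scale cannot be told apart.

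The others of the 15 had varied roles. Cacng5, an auxiliary subunit of AMPA receptors, differed by -6.40 ± 0.21, Resp18, of secretory granules, by -6.34 ± 0.15, and Calb2, calretinin, by -5.93 ± 0.27. Stmn2, a tubulin-binding protein of growing axons, differed by -6.23 ± 0.19, Nefl by -6.14 ± 0.38 and Nefm, the medium neurofilament chain, by -6.05 ± 0.40. The noncoding Snhg11 differed by -7.04 ± 0.31, Pou4f1 by -6.28 ± 0.35 and Nell1, a secreted glycoprotein with a second probe set that did not change by 1, by -5.91 ± 0.14. Rpl39, a ribosomal protein gene, and Rnf19b, a ubiquitin ligase gene, differed by -6.21 ± 0.27 and -6.13 ± 0.16. Rnf19b was at the lowest possible value, 4.09, in all 4 bipolar arrays. Amacrine arrays held 4.26 to 5.19 for Rpl39 and 4.09 to 5.18 for Rnf19b, close to the bipolar values, so for these genes too the class and the intensity scale cannot be told apart.

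**Figure D3:**
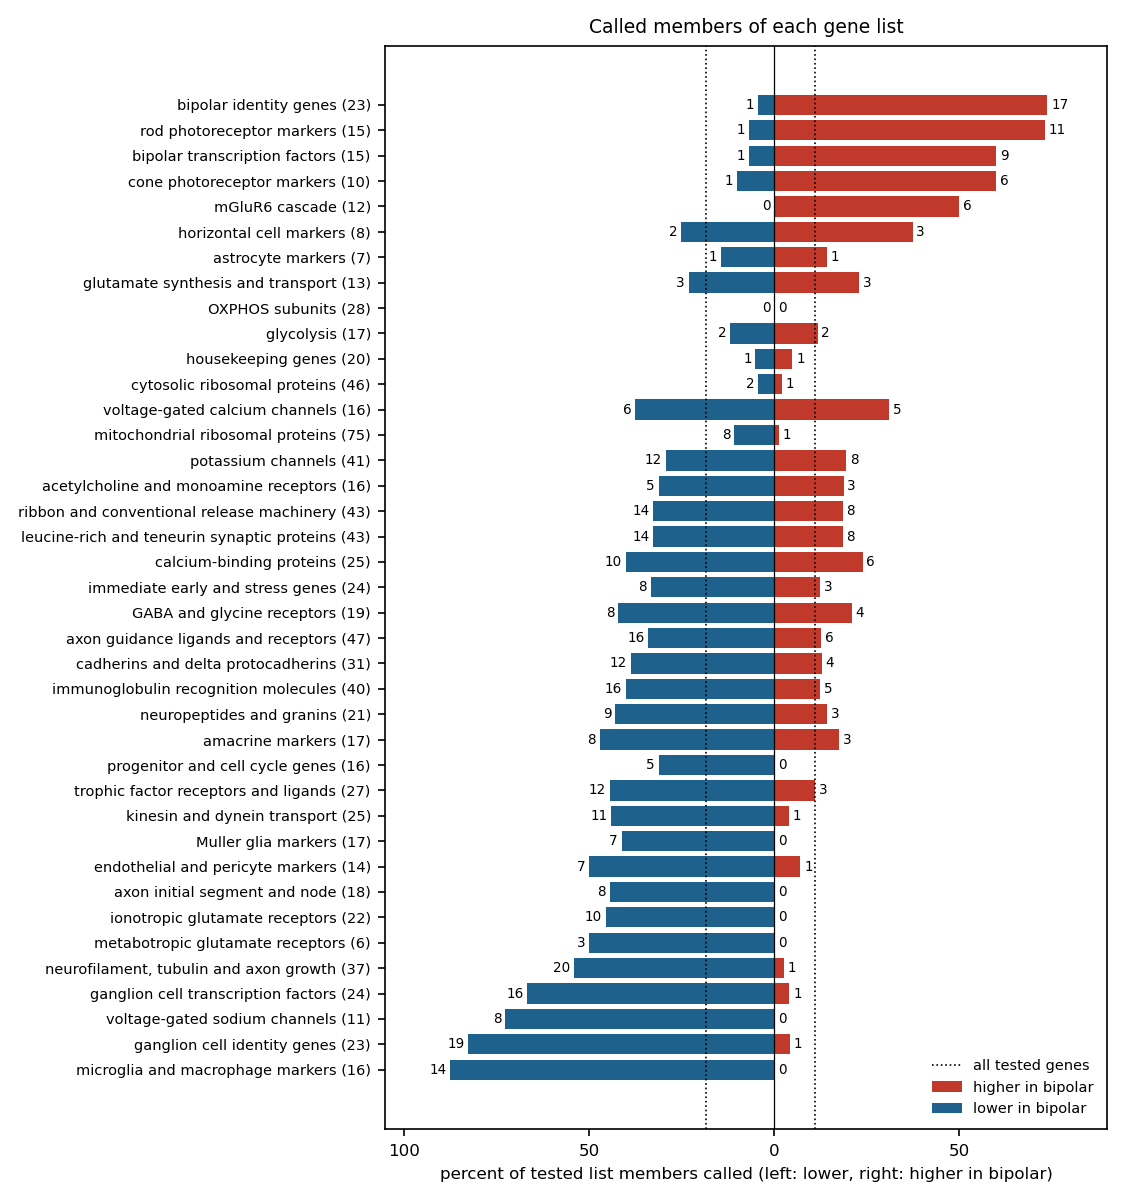
Share of the tested members of each gene list (red blood cell genes left out) called higher (right) or lower (left) in bipolar cells, in percent, with the count at each bar, the number tested in brackets and dotted lines at the shares over all tested genes, 11.2% and 18.5%. The list of bipolar identity genes reaches furthest to the right with 17 of 23 and that of microglia and macrophage markers furthest to the left with 14 of 16.

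The release machinery differed in composition. Of 43 tested genes of ribbon and conventional synapses, 8 were higher and 14 lower in bipolar cells, with a median difference of -0.32. Complexins clamp and promote vesicle fusion, and their members parted. Cplx3 was at 11.96, 11.81, 11.68 and 11.77 in bipolar arrays, against 5.18, 5.56 and 6.17 in ganglion cells. Cplx4, the other ribbon complexin, was at 7.96 and 7.57 in ON and 5.84 and 6.04 in MP arrays, against 4.68, 5.23 and 5.62. Cplx1, of conventional synapses, was at 9.93, 9.41, 9.23 and 8.69, against 10.75, 11.63 and 12.39 in ganglion cells. These did not overlap between the classes, while Cplx2 did, and its difference of -0.57 ± 0.15 did not reach 1. For Cplx3 the amacrine arrays held 9.93 to 12.02, so high Cplx3 was not particular to bipolar cells.

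Syntaxins, the membrane partners of vesicle fusion, parted as well. Stx3, the syntaxin of ribbon synapses, was at 11.67, 11.85, 11.40 and 11.54 in bipolar arrays, against 8.06, 8.66 and 9.98 in ganglion cells (2.78 ± 0.24). Stx1a, the neuronal syntaxin of conventional synapses, was at 7.09, 6.86, 7.07 and 6.92 in bipolar arrays, against 9.07, 10.01 and 10.55 (-2.92 ± 0.13), and Stx2, another syntaxin, differed by -3.35 ± 0.16. Unc119, a lipid-binding trafficking protein of ribbon synapses, was higher by 2.48 ± 0.15 and Syt5, a synaptotagmin, by 2.71 ± 0.15. Syn2, a synapsin that tethers vesicles at conventional terminals, differed by -4.08 ± 0.25 and Rab3d, a vesicle GTPase, by -2.98 ± 0.12, in part of their probe sets. Ctbp2, whose locus encodes the ribbon protein RIBEYE, was named after its values were seen and was higher by 1.47 ± 0.11.

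Glutamate handling differed by transporter. Slc17a6, the vesicular glutamate transporter VGLUT2 of ganglion cells, was at 5.92, 6.11, 6.34 and 6.34 in bipolar arrays, against 11.36, 11.70 and 12.23 in ganglion cells (-5.55 ± 0.25, 46.8-fold). Slc17a7, VGLUT1, which loads bipolar vesicles in the adult, was at 6.57, 6.37, 6.69 and 6.65, against 5.57, 5.88 and 6.22. The arrays did not overlap for Slc17a7, but its difference of 0.65 ± 0.15 was under the minimum of 1. Among plasma membrane carriers, Slc1a7, the EAAT5 glutamate transporter of bipolar and photoreceptor terminals, was at 10.63 and 9.97 in ON and 7.67 and 7.47 in MP arrays, against 4.59, 5.38 and 5.6 in ganglion cells. Slc1a2, the transporter GLT-1, and Slc38a3, a glutamine carrier, were higher by 3.11 ± 0.17 and 3.46 ± 0.14. Of 13 tested genes for glutamate synthesis and transport, 3 were higher and 3 lower.

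**Figure D4:**
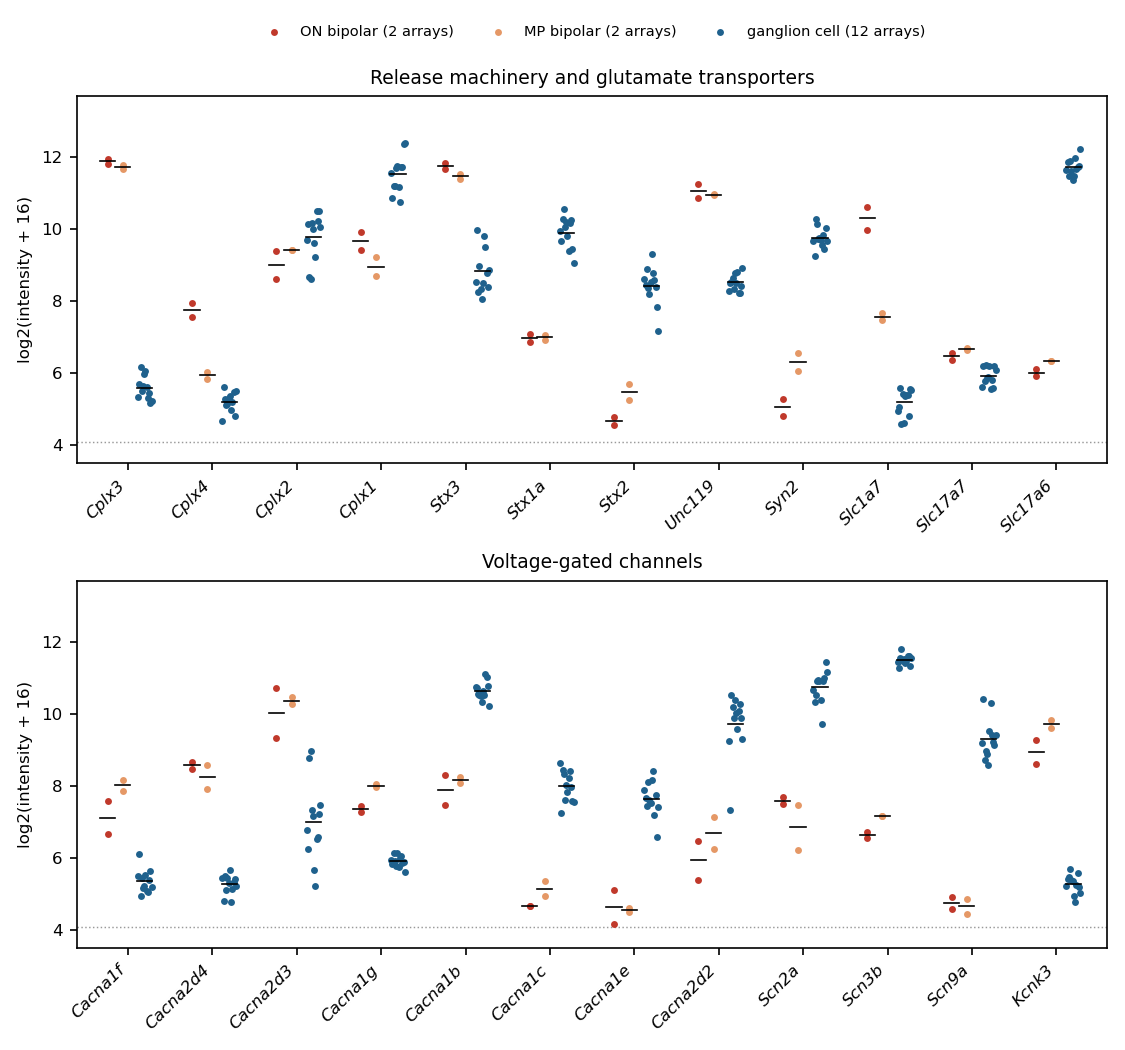
Levels of release, transporter and channel genes as log2(intensity + 16), with one point per array, a bar at each mean and a dotted line at 4.09, the lowest possible value. Cplx3, Stx3, Unc119, Slc1a7, Cacna1f, Cacna2d4 and Kcnk3 lie higher in the 4 bipolar arrays, and Cplx1, Stx1a, Syn2, Slc17a6, Cacna1b and the sodium channel genes lie higher in the 12 ganglion cell arrays.

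Voltage-gated calcium channel genes had members in both directions, also among the L-type pore genes. Of 16 tested subunits and partners, 5 were higher and 6 lower in bipolar cells. Cacna1f, the L-type pore subunit of ribbon synapses, was at 7.58, 6.66, 7.87 and 8.17 in bipolar arrays, against 4.94, 5.29 and 6.11 in ganglion cells (2.22 ± 0.17). Its partner subunit gene Cacna2d4 was higher by 3.15 ± 0.18, Cacna2d3 by 3.20 ± 0.20 and the T-type pore gene Cacna1g by 1.78 ± 0.11. Cacna1b, the N-type pore subunit, was at 7.47, 8.29, 8.09 and 8.24 in bipolar arrays, against 10.22, 10.60 and 11.12 (-2.62 ± 0.15). Cacna1c, another L-type pore gene, Cacna1e, the R-type pore gene, and Cacna2d2 differed by -3.09 ± 0.24, -3.05 ± 0.34 and -3.41 ± 0.30. None of these overlapped between the classes, though with a pseudocount of 1 Cacna1c was not called.

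Sodium channel genes, which carry the action potential, were lower in bipolar cells for 8 of 11 tested members and higher for 0 in limma's fit (9 and 0 at an unadjusted p under 0.05). Scn3b, an auxiliary subunit, was at 6.71, 6.55, 7.16 and 7.17 in bipolar arrays, against 11.29, 11.50 and 11.81 in ganglion cells. The pore genes Scn9a and Scn2a differed by -4.62 ± 0.20 and -3.53 ± 0.24, the auxiliary Scn2b by -2.78 ± 0.20 and Fgf12, an intracellular regulator of these channels, by -3.70 ± 0.16. Potassium channels went in both directions, with 8 higher and 12 lower among 41 tested. Kcna5, Kcnk3 (TASK-1, a leak channel) and Kcnma1 (the large-conductance calcium-activated channel) were higher by 4.62 ± 0.29, 4.05 ± 0.18 and 3.92 ± 0.35, and the pacemaker channel gene Hcn3 by 2.12 ± 0.20. Kcnq3, of the M-current, Kcnd2, of the A-current, Kcns2, a modulatory subunit, and Kcna1, an axonal channel, differed by -4.91 ± 0.29, -4.39 ± 0.23, -4.35 ± 0.21 and -4.24 ± 0.19. Taking the median of each gene's probe sets, Kcnd2 differed by -2.18, Kcns2 by -2.26 and Kcna1 by -1.50.

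Members of 2 glutamate receptor lists that were called for the bipolar class as a whole were lower in bipolar cells. Of 22 tested ionotropic receptor genes and auxiliary subunits, 10 were lower and 0 higher in limma's fit (13 lower and 3 higher at an unadjusted p under 0.05). Of 6 tested metabotropic receptors, 3 were lower and 0 higher (3 and 2 unadjusted). After Cacng5, the AMPA receptor gene Gria3 fell most, to 4.84, 4.16, 5.73 and 5.66 in bipolar arrays, against 8.43, 9.20 and 10.05 in ganglion cells (-4.18 ± 0.13). Its second bright probe set did not change by 1. Grik3, a kainate receptor gene, differed by -3.59 ± 0.21 and overlapped between the classes, and Grin3a, an NMDA receptor gene, by -2.54 ± 0.21. With the median over probe sets, 2 ionotropic members were called higher and 7 lower. Grm3 and Grm4, metabotropic receptors that lower cyclic AMP, differed by -2.26 ± 0.24 and -1.63 ± 0.17. Grm7 was called lower too, but its sign turned (0.31) with the median over probe sets. With ON bipolar cells alone, 1 metabotropic receptor was called higher and 3 lower.

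Inhibitory receptor genes split, with 4 of 19 higher and 8 lower. The rho subunits were the leading members that rose, Gabrr1 as above and Gabrr2 at 9.13, 7.44, 6.21 and 7.66 in bipolar arrays, against 4.09, 4.25 and 5.12 in ganglion cells (3.26 ± 0.30). Glra1, a glycine receptor subunit of OFF bipolar terminals, was at 7.57 and 6.73 in ON arrays and averaged 11.10 in MP arrays, and overlapped the ganglion cells at 4.56, 6.25 and 9.0. Glra2 was at 5.33, 5.08, 5.50 and 6.06 in bipolar arrays, against 9.35, 9.91 and 10.63 (-4.41 ± 0.13). Gabrg1, Gabra5 and Gabra2, subunits of GABA-A receptors, differed by -3.08 ± 0.19, -2.79 ± 0.23 and -2.77 ± 0.21.

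Among 16 tested receptors for acetylcholine, monoamines and cannabinoids, 3 were higher and 5 lower. Drd1, the D1 dopamine receptor, was at 9.83, 10.75, 11.23 and 11.05 in bipolar arrays, against 5.84, 7.29 and 8.54 in ganglion cells (3.44 ± 0.21, 10.9-fold). Drd2 was at 8.55 and 7.60 in ON and 5.61 and 5.53 in MP arrays, against 5.38, 5.77 and 6.63, and its call of 1.02 ± 0.17 was lost, with the sign turned, when MP bipolar cells were taken alone. The cannabinoid receptor Cnr1, the serotonin receptor Htr1b and the nicotinic subunit Chrna6 differed by -4.45 ± 0.29, -4.07 ± 0.20 and -3.04 ± 0.18.

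Genes of the axon were called lower in bipolar cells more often than higher. Of 37 tested genes for neurofilaments, tubulins and axon growth, 20 were lower and 1 was higher, with a median difference of -1.21. The 4 with the largest fall were Sncg, Stmn2, Nefl and Nefm, described above, and the member that rose was Dpysl4, a collapsin response mediator (1.27 ± 0.13, in 1 of 3 probe sets). Of 18 genes of the axon initial segment and node, 8 were lower and 0 higher in limma's fit (14 and 0 at an unadjusted p under 0.05). Of 25 kinesin and dynein genes, 11 were lower and 1 was higher. Dync1i1, a dynein intermediate chain, was at 5.04, 5.40, 5.96 and 5.32 in bipolar arrays, against 9.20, 10.20 and 10.57 in ganglion cells (-4.59 ± 0.19). Kif26a, an atypical kinesin, and Jakmip1, which links RNA and microtubules, differed by -3.88 ± 0.22 and -3.40 ± 0.26.

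Guidance and recognition molecules had members in both directions. Of 47 guidance genes, 6 were higher (12.8%, near the 11.2% of all tested genes) and 16 lower in bipolar cells (34%, against 18.5%). Epha3, an Eph receptor, was at 8.38, 9.27, 10.14 and 10.35 in bipolar arrays, against 5.09, 6.06 and 6.57 in ganglion cells, and Epha7 was higher by 3.48 ± 0.21. Slit2, a ligand of Robo receptors, was at 11.10 and 11.25 in ON and 12.81 and 12.82 in MP arrays, against 8.94, 9.52 and 10.20. Nrp1, a co-receptor for semaphorins and VEGF, was at 6.14, 6.84, 7.98 and 7.53 in bipolar arrays, against 10.52, 10.86 and 11.39 (-3.82 ± 0.18). Ephb1, an Eph receptor known from ganglion cell axons that stay on the same side of the brain, differed by -3.62 ± 0.14.

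Of 40 immunoglobulin recognition molecules, 5 were higher (12.5%, near the share over all tested genes) and 16 lower (40%). Dscaml1, a homophilic recognition protein of the rod pathway, was at 11.90 to 12.09 in the 4 bipolar arrays, against 5.02, 9.45 and 10.07 in ganglion cells. Its ganglion cell level varied by subtype and was highest in W3. Chl1 and L1cam, of the L1 family that guides axon bundling, differed by -5.91 ± 0.19 and -4.32 ± 0.12, Opcml by -5.27 ± 0.24 and Alcam by -4.58 ± 0.22. The median of its probe sets gave -1.87 for Chl1. Of 31 cadherins and delta protocadherins, 4 were higher (12.9%, near the share over all tested genes) and 12 lower (38.7%). Among them were Cdh9, which guides bipolar axons to their layer in the mouse (2.36 ± 0.20), and Cdh13 (-3.79 ± 0.12, but -1.01 with the median over probe sets). With subtype means as units, 4 of the 31 were higher and 8 lower. Among 43 leucine-rich and teneurin proteins, 8 were higher and 14 lower. Lrit1 and Lrit2, neighbours on chromosome 14, were the first 2, with Lrit2 at 9.97, 8.24, 9.31 and 9.80 in bipolar arrays, against 4.21, 4.71 and 5.19. Flrt2, a ligand of latrophilins and Unc5 receptors, differed by -4.88 ± 0.19.

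Peptides, trophic signals and calcium-binding proteins followed. Of 21 neuropeptide and granin genes, 9 were lower (42.9%) and 3 higher (14.3%, near the share over all tested genes). Tac1, the precursor of substance P, was at 6.47, 5.80, 5.28 and 5.30 in bipolar arrays, against 8.93, 11.39 and 12.42 in ganglion cells (-5.52 ± 0.21), and Vgf and Gal, galanin, differed by -4.95 ± 0.24 and -4.13 ± 0.12. Chga, chromogranin A, was higher by 1.55 ± 0.12. Of 27 trophic genes, 3 were higher (11.1%, the share over all tested genes being 11.2%) and 12 lower (44.4%). Vegfa, the vascular growth factor, was at 10.47, 10.48, 10.87 and 10.72 in bipolar arrays, against 5.36, 5.92 and 6.44, while amacrine arrays held 8.87 to 11.22 on the same scale as the bipolar ones. Ret, the GDNF family co-receptor, was at 5.51, 5.59, 5.34 and 5.28, against 10.46, 11.12 and 11.51 (-5.68 ± 0.10), in 1 of 2 bright probe sets. Of 25 calcium-binding proteins, 6 were higher and 10 lower. Scgn, secretagogin, of cone bipolar cells, was higher by 3.52 ± 0.23, and Hpca, hippocalcin, lower (-5.26 ± 0.22).

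Lists of genes used by every cell were called at or below the shares over all genes, 11.2% higher and 18.5% lower, apart from glycolysis, where 11.8% were called in each direction. Of 28 tested subunits of oxidative phosphorylation, 0 were called higher and 0 lower by limma, with a range of differences from -0.62 to 0.78 and a median of 0.016. At an unadjusted p under 0.05, 3 were higher and 3 lower. Of 17 glycolysis genes, 2 were higher and 2 lower. Among 46 cytosolic ribosomal proteins (Rps6k kinases left out), 1 was higher and 2 were lower, Rpl39 among them, and among 75 mitochondrial ones 1 was higher and 8 were lower. With the columns as deposited, 0 mitochondrial ribosomal genes were higher and 16 lower, and 0 glycolysis genes were higher and 4 lower. Of 20 housekeeping genes, 1 was higher and 1 was lower. The higher one was Polr2a, the large subunit of RNA polymerase II, at 10.16, 10.32, 10.12 and 10.23 in bipolar arrays, against 5.68, 6.76 and 7.2 in ganglion cells. Amacrine arrays held 9.67 to 10.29 for Polr2a, and its other bright probe set did not change by 1. The lower one was B2m, a part of the class I antigen complex (-3.74 ± 0.36).

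Within the bipolar class, ON and MP cells differed for 702 genes, or 5.03% of those tested (361 higher and 341 lower in ON). Strain background differs between these subtypes, so it cannot be told apart from the subtype. The metabotropic receptor cascade of ON bipolar cells held 12 tested genes. Of these, 6 were higher and 0 lower than in ganglion cells for the bipolar class as a whole (8 and 1 at an unadjusted p under 0.05 in limma's fit), and 8 differed between ON and MP. The class count averages unlike subtypes: ON bipolar cells alone had 8 members higher and 0 lower than ganglion cells, and MP bipolar cells alone had 2 higher and 3 lower. Pcp2, a regulator of the cascade's G protein, was at 12.29 and 11.80 in ON, 6.46 and 6.23 in MP and 5.63, 5.84 and 6.12 in ganglion cells. Gpr179, which anchors its regulators, was at 9.24 and 8.65 in ON, 4.71 and 4.17 in MP and 4.09, 4.21 and 4.71 in ganglion cells. For both, MP bipolar cells taken alone were not called against ganglion cells.

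Most G protein genes of the cascade differed between ON and MP as well. Gng13, Gnao1, Prkca and Trpm1 lie outside the naming rule and were chosen after their values were seen. Gng13, its gamma subunit, exceeded MP by 5.29 ± 0.40 in ON cells, and Gnb3, its beta subunit, by 1.87 ± 0.28. Gnb3 was at 11.43 and 11.08 in ON and 9.52 and 9.24 in MP arrays, against 6.41, 6.92 and 7.32 in ganglion cells, and so was high in both bipolar subtypes. Gnao1, the alpha subunit, and Prkca, protein kinase C alpha, the usual label of rod bipolar cells, differed by 2.02 ± 0.28 and 3.59 ± 0.22 between ON and MP. Neither differed by 1 between the classes, and ganglion cells lay between ON and MP for both. Gnb5, the partner of the regulators, likewise exceeded MP by 1.95 ± 0.25 in ON cells, with 0.17 ± 0.15 between the classes. Trpm1, the cation channel, differed by 1.87 ± 0.24 between ON and MP, with low levels throughout (7.06 and 6.45 in ON, 4.67 and 5.11 in MP and 5.70, 5.89 and 6.45 in ganglion cells). Rgs9bp did not differ by 1, at 9.94 and 9.57 in ON and 9.54 and 9.77 in MP arrays. The other beta subunits were lower in the bipolar class, Gnb1 by -1.73 ± 0.12, Gnb2 by -2.08 ± 0.17 and Gnb4 by -2.39 ± 0.21, with Gnb1 and Gnb4 not called with the median over probe sets.

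**Figure D5:**
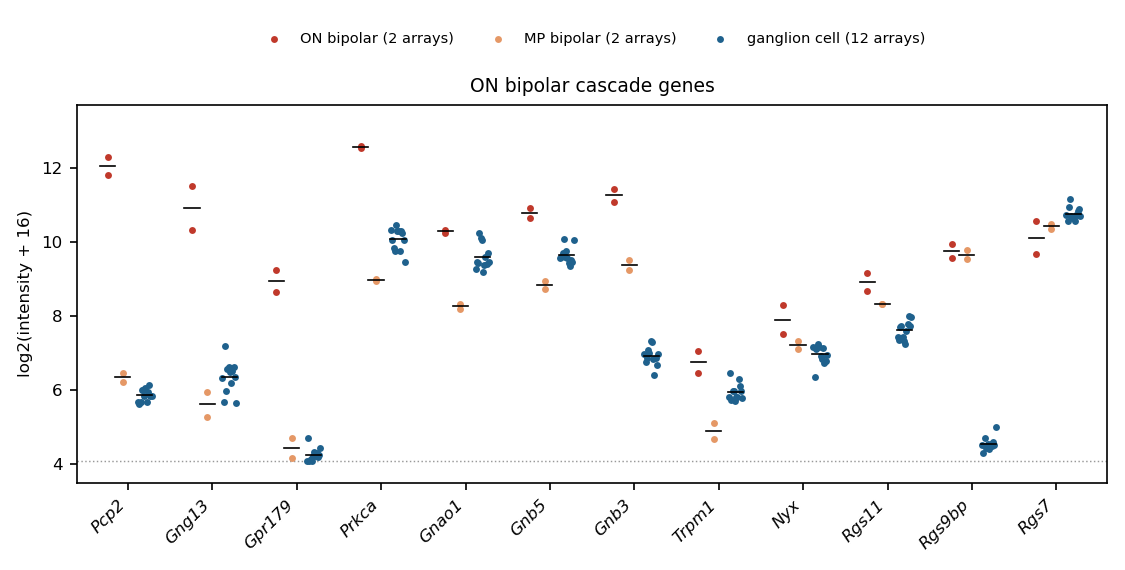
Level of the 12 tested genes of the ON bipolar cascade as log2(intensity + 16), ordered by the difference between ON and MP bipolar cells, with one point per array, a bar at each mean and a dotted line at 4.09. Pcp2, Gng13 and Gpr179 are high in the 2 ON arrays alone, whereas Gnb3 and Rgs9bp are high in both bipolar subtypes.

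Among the 6 ganglion cell subtypes, 828 genes differed (5.94% of those tested; limma F test, adjusted p under 0.05 and a range of subtype means of at least 1). Several genes that set bipolar cells apart varied in this way. Prdm8 ranged over 4.53 log2 units between subtype means and Cartpt, a peptide gene of BD cells here, over 4.6 units. Cacna2d3 ranged over 3.4 and was highest in Cdh3 cells, as was Opn4, melanopsin, which marks intrinsically photosensitive ganglion cells. Opn4 was at 7.71, 7.28, 7.67 and 7.56 in bipolar arrays and 4.74, 6.03 and 9.30 in ganglion cells. It was called higher in bipolar cells by 1.21 ± 0.22, although the classes overlapped and the sign turned with the median over probe sets. Without the first BD replicate the F test called 1791 genes.

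Markers of other cells moved with the classes. Of 15 rod markers, 11 were higher and 1 lower in bipolar cells, and the mean level of the list was 8.08 to 8.77 in bipolar and 5.87 to 6.90 in ganglion cell arrays. It was 6.91 to 8.92 in amacrine arrays. Gngt1, the rod transducin gamma subunit, was at 11.66, 11.12, 11.84 and 12.09 in bipolar arrays, against 4.81, 6.77 and 9.36 in ganglion cells, and Sag, rod arrestin, was higher by 3.81 ± 0.40. Nrl, the rod leucine zipper factor, chosen after its values were seen, was at 9.79, 9.12, 10.04 and 9.94 in bipolar arrays, against 5.95, 7.2 and 8.63 in ganglion cells. Of 10 cone markers, 6 were higher and 1 lower, with list means of 7.28 to 7.71 in bipolar and 5.85 to 6.35 in ganglion cell arrays. Some of these genes, such as Gnb3 and Rcvrn, are known from bipolar cells too, and Otx2, Crx and Lrit1 from photoreceptors. In bulk samples more cells of a type and more RNA per cell cannot be told apart, and the part of photoreceptor RNA in the bipolar differences was not tested.

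Microglia, vessel and glial markers lay the other way. Of 16 microglia and macrophage markers, 14 were lower and 0 higher in bipolar cells (14 and 1 at an unadjusted p under 0.05 in limma's fit), and the list mean was 5.61 to 6.49 in bipolar and 6.05 to 9.85 in ganglion cell arrays. C1qa, a complement gene of microglia, was at 4.91, 4.78, 6.72 and 4.94 in bipolar arrays, against 6.28, 9.80 and 11.68. Without the J and Isl2 ganglion cells, 10 markers were lower, and with subtype means as units 8 were. Of 14 vessel markers, 7 were lower and 1 higher, with list means of 5.61 to 5.75 in bipolar and 6.03 to 8.55 in ganglion cells. With subtype means as units, 4 vessel markers were lower and 0 higher. Rgs5, of pericytes, was at 4.90, 5.12, 5.12 and 5.33 in bipolar arrays, against 6.52, 10.73 and 12.71, and was highest in J cells. Of 17 Muller glia markers, 7 were lower and 0 higher (8 and 3 unadjusted), and of 16 progenitor and cell cycle genes, 5 were lower and 0 higher (6 and 1 unadjusted). Without the J and Isl2 cells, 3 progenitor genes were lower. The part of these cells in the class differences was not tested. Amacrine markers had list means of 6.04 to 6.59 in bipolar and 6.76 to 8.14 in ganglion cell arrays, with 3 of 17 higher and 8 lower. Without the J and Isl2 subtypes the classes differed for 1572 genes higher and 2557 lower, and 3949 of the 4132 genes remained called.

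The lists of horizontal cell, astrocyte, stress and red blood cell genes stayed small or mixed. Of 8 horizontal cell markers, 3 were higher and 2 lower, of 7 astrocyte markers 1 was higher and 1 lower, and of 2 red blood cell genes 1 was higher. Of 24 immediate early and stress genes, 3 were higher (12.5%, near the share over all tested genes) and 8 lower (33.3%). Nr4a1, an activity-induced nuclear receptor, was at 10.40, 9.76, 9.86 and 9.54 in bipolar arrays, against 6.44, 6.85 and 7.78 in ganglion cells, while Arc, an activity-induced synaptic gene, was at 4.09, 4.21, 4.31 and 4.09, against 6.06, 6.47 and 6.82. The group thus had members far apart in both directions.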

How the data were processed

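Per the labels, RNA of sorted retinal neurons was amplified in 2 rounds and hybridised to single-colour Affymetrix arrays. The deposited values are intensities on a linear scale with a floor of 1. How the scanner images became these values is not given in the sources used here. The lowest value, 1, made up 2.87% to 4.02% of an array. No depth or detection call was used, so the number of arrays limits the precision.

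Values were taken as log2(intensity + 16) and quantile normalized over the 45037 probe sets of all 26 arrays that are not among the 64 controls. Probe sets without a symbol (9160) or with several (932) were then left out. Of 34945 probe sets with a single symbol, from the platform annotation and updated by gene identifier for 34741, the brightest stood for each of 18193 genes, and the 13951 genes above the overall median (6.14) on at least 2 arrays were tested. Tests used limma 3.58.1 in R 4.3.3, with 13 subtype means, 13 residual and 4.59 prior degrees of freedom, equal weight per subtype and Benjamini-Hochberg adjustment over all genes tested, two-sided. Named genes are the 15 highest and 15 lowest among called genes with no overlap of arrays (clone and predicted symbols left out), at most 4 called members per list and direction, the markers, sort genes and a few families. Of 894 listed symbols, 813 were measured, and the others were not analysed here. Members and lists were chosen with earlier results of these data known. The fit was tested on simulated data with normal errors and no spread between subtypes. There, 41.5% of genes with a true class difference of 1 log2 unit were called, 98.5% at 1.5 and 99% at 2. A gene that was not called can thus still differ by about 1. Alternatives covered normalization, pseudocount, filter, probe sets, variance model, weights, strain, subtypes and each array left out.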

Additional observations from a re-analysis of the deposited data

Results flagged for a closer look

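For 5 of the ranked, family and sort genes the class difference was not the same in ON and MP bipolar cells, by limma's test of ON minus MP, which equals the difference between their separate contrasts with ganglion cells. Thy1 differed by -6.63 ± 0.33 log2 units and Lbh by -2.17 ± 0.28, both higher in MP cells. Cplx4 differed by 1.82 ± 0.38, Gnb3 by 1.87 ± 0.28 and Gnb5 by 1.95 ± 0.25, all higher in ON cells. Strain background differs between these subtypes and cannot be told apart from the subtype. Subtypes had 2 arrays each, too few for a search for single arrays that stand apart.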

How the results depend on the processing

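The counts of 1557 genes higher and 2575 lower in bipolar cells stayed within 1.5 times under most alternatives. The exceptions were 787 and 4180 with the columns as deposited, 429 and 1056 with a minimum difference of 2, 4271 and 4501 with none, and 942 higher with a pseudocount of 64. ON against MP calls numbered 287 and ganglion cell subtype calls 372 with a minimum difference of 2. With each array left out in turn, counts ran from 1538 to 1605 higher, 2511 to 2621 lower, 533 to 725 for ON against MP and 638 to 1791 among ganglion cell subtypes, the last without BD replicate 1. There the lone array is assumed to vary like the other groups, and the cause was not tested. Replicate numbers were not taken as pairs. Deviations of same-numbered replicates correlated at -0.228 to 0.374 over 28 pairs of subtypes, with a median of 0.045 and 9 pairs above 0.1. With a replicate block, 1557 higher and 2575 lower were called. Each subtype holds both replicate numbers, so the block cannot change the size of a class difference. With it, 727 genes were called for ON against MP and 919 among ganglion cell subtypes. All 30 ranked genes kept their direction and call under every alternative run, which their choice for large differences in the same arrays made likely. Their sizes moved, for Lbh between 1.36 and 6.99 and for Rnf19b between -9.20 and -3.21. Signs turned for some list members. With the 16 arrays normalized and fitted alone these were Adra2c (-1.88), Slit1 (-1.45), Tbx20 (-2.80), Mrpl38 (-0.20) and Acvr1c (-1.07), with a pseudocount of 1 Slit1 (-1.66), and with the median over probe sets Sema6a (1.22), Opn4 (-0.30), Tbx20 (-0.72), Grm7 (0.31), Mrpl17 (0.32) and Il6st (0.22). With MP bipolar cells alone Drd2 (-0.24), Dab1 (-1.40) and Thy1 (0.20) turned, and Esam did with C57BL/6 subtypes alone (-0.27) and with ON bipolar cells alone (-0.33). The deposited scale of the ganglion cell columns cannot be told apart from the class, and leaving out the J and Isl2 subtypes was chosen after seeing the data.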
